A study of Homo sapiens with 8 samples.

Results

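The 10 genes described here encode the subunits of the transcription factor AP-1 (FOS, FOSB, FOSL1, FOSL2, JUN, JUNB and JUND) and 3 other immediate early products (EGR1, IER3 and PHLDA1). They were taken by gene symbol from a table of 60623 genes, each symbol matched 1 row, and all 10 were among the 15010 genes with enough reads to be tested. Messenger RNA had been measured in ARPE-19, an established human cell line of the retinal pigment epithelium, grown with fetal bovine serum and exposed for 24 h. Control cells received PBS alone, fucoidan cells 400 µg/mL of a crude-grade sulfated polysaccharide from the brown alga Fucus vesiculosus, particulate cells 200 µg/mL of diesel particulate matter (reference material SRM 1650b, named PM2.5 in the labels), and combination cells both agents at these doses, added together. Each group had 2 biological replicates (n = 2 for every mean), numbered as in the labels, which gave 8 libraries of 12993565 to 17019284 counted reads. The particles had been suspended in DMSO (under 0.1% in the medium) and the control cells received no DMSO, so particles and solvent cannot be told apart.

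AP-1 is a dimer of basic leucine zipper proteins. FOS proteins pair mainly with JUN proteins and do not pair with each other stably, whereas JUN proteins do, and the dimers bind the motif TGANTCA. FOS, JUN, JUNB and EGR1 are textbook immediate early genes, whose transcription starts within minutes of serum, growth factor or stress signals through MAP kinases and declines soon after. FOSL1 (the protein FRA-1) and FOSL2 (FRA-2) lack the strong activation domain of FOS and FOSB and follow more slowly, and FRA-1 accumulates under lasting ERK activity. In many cultured epithelial cells FRA-1 with c-Jun acts on migration, protease and cytokine genes.

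Of the 10 genes, 8 had an entry among the RefSeq promoters (GRCh38.p14). The 200 bases upstream of the start are shown for a pair that fell with particulate (FOS on the plus strand at chr14:75278628-75278827 and JUNB on the plus strand at chr19:12791286-12791485), for JUN, which rose (minus strand, chr1:58784048-58784247), and for EGR1, which did not pass the test (plus strand, chr5:138465279-138465478), so that genes with different responses can be compared. They run 5′ to 3′ on the gene's strand, ending at the base before the start. Capitals mark TGACG (read CGTCA on the other strand), TGACNTCA, TATAAA and, in EGR1, the CArG box that serum response factor binds.
FOS: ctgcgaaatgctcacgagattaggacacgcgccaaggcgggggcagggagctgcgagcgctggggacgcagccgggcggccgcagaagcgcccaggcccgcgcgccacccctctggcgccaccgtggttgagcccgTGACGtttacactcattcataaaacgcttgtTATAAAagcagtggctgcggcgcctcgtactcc
JUNB: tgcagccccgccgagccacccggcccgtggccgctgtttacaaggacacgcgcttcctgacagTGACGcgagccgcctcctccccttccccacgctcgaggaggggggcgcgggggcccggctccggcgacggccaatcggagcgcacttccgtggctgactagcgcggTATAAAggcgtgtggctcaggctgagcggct
JUN: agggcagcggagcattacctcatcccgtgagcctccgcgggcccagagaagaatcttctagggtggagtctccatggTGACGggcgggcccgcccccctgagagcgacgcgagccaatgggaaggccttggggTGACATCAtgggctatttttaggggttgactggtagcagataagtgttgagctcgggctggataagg
EGR1: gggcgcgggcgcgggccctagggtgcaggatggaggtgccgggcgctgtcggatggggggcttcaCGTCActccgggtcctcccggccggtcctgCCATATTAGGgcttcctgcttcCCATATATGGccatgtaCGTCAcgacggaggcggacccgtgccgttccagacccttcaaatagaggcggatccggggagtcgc
On either strand, TGACG was present in 7 of the 8 promoters, all but that of PHLDA1, and in 18.4% of the 34780 distinct RefSeq promoters of this length. TGACG can lie inside TGACNTCA when N is G. The CArG box was found in EGR1 alone among the 8, at 105 to 96 and 83 to 74 bases upstream, and in 0.989% of all promoters. Only these 200 bases were searched, so a motif farther upstream of any of the genes would not be seen. TGACNTCA was in JUN, 67 to 60 bases upstream, and in JUND, against 6.13% of all promoters. TATAAA was in FOS, FOSB and JUNB, against 8.64%. TGANTCA was in none of the 8 windows and in 5.40% of all. FOS and JUNB also held GCGTG (left in lower case), the core that the aryl hydrocarbon receptor binds, as did 28.1% of all promoters. TGACG was thus in JUN, which rose with particulate, in FOS and JUNB, which fell, and in genes that did not pass the test. PHLDA1, which also rose, held none of the motifs searched. FOSL1, which rose too, and IER3 had no promoter entry and could not be compared.

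In control cells IER3, a stress-induced survival regulator, had the highest level of the 10 genes per transcript length, at 1069 ± 187 TPM (SD, n = 2). EGR1, JUNB and JUND followed at 471 ± 81.6, 427 ± 91.2 and 420 ± 21.6 TPM, and their replicates overlapped from one neighbour to the next. FOS had 317 ± 33.0, JUN 216 ± 48.6, FOSL2 114 ± 7.42 and FOSL1 74.8 ± 3.44 TPM. PHLDA1, a pleckstrin homology-like protein, had 32.2 ± 2.17 TPM and FOSB 12.7 ± 3.18 TPM, and from FOS downward no neighbours overlapped. With particulate the order changed: FOSL1 moved from the eighth place to the next after IER3, at 651 ± 117 TPM, and FOS from the fifth place to the ninth, at 41.8 ± 7.51 TPM. Among all genes FOS ranked 425th and 490th by TPM in the control libraries and 3961st and 3619th in the particulate libraries, while FOSL1 went from 2277th and 2068th to 221st and 174th. In the combination FOSL1 (592 ± 166 TPM), JUN (526 ± 136), EGR1 (483 ± 47.1) and JUND (406 ± 162) followed IER3 (1782 ± 260.0), each overlapping the next. With fucoidan alone the order was near that of control, with JUNB (570 ± 37.5 TPM) and EGR1 (562 ± 82.5) next after IER3 (1613 ± 70.9). The mean TPM of IER3 was the highest and that of FOSB the lowest of the 10 in all 4 groups.

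**Figure D1:**
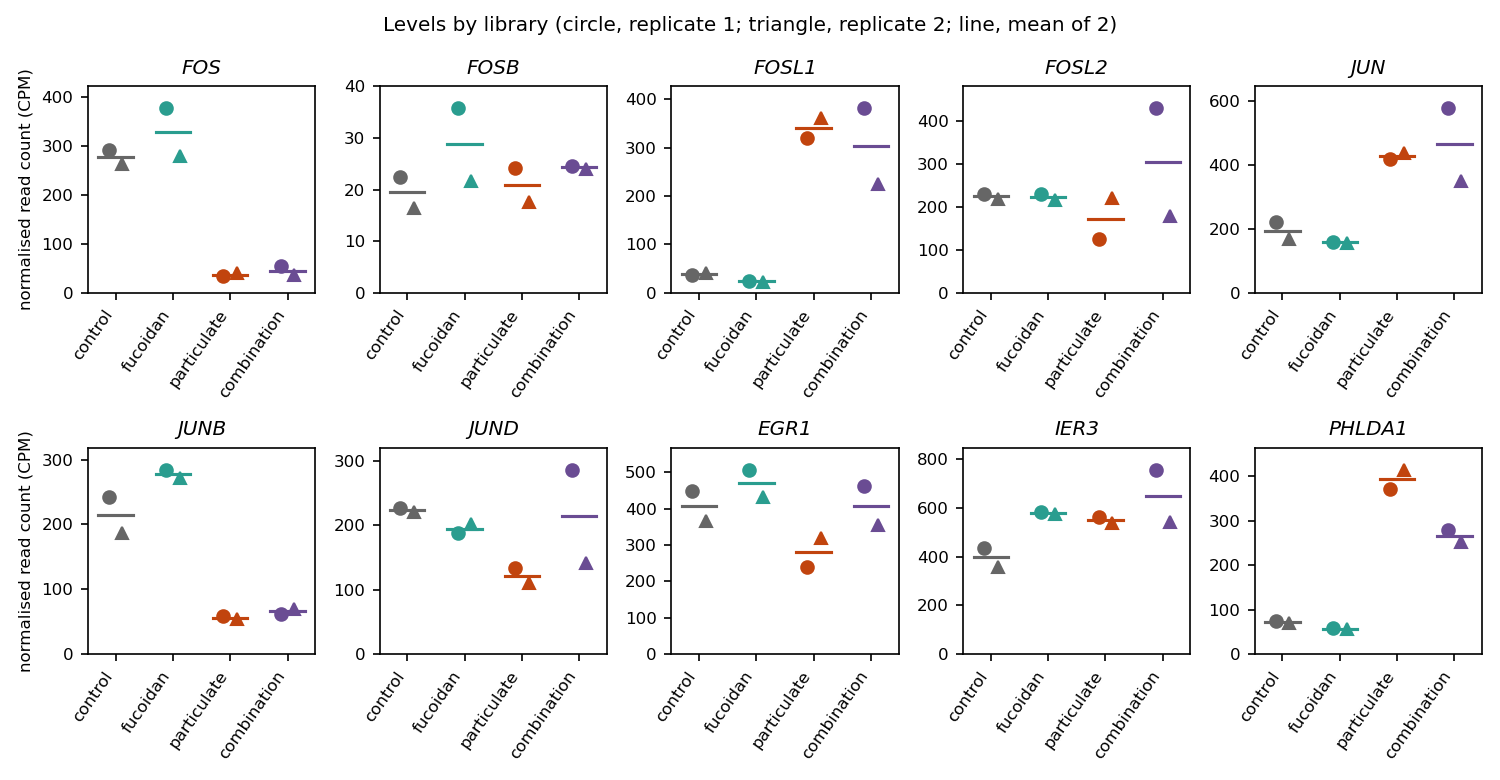
Normalised read counts (CPM, linear axis from 0) of the 10 genes in the 8 libraries by group, with circles for replicate 1, triangles for replicate 2 and lines for the mean. FOS and JUNB lie low, and FOSL1, JUN and PHLDA1 high, in all 4 libraries with particulate, and replicate 1 of the combination lies above replicate 2 for FOSL2 and JUND, with ratios of 2.41 and 2.03.

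Particulate against control asked what the particles with their solvent did in the absence of fucoidan. Within the FOS family FOSL1 rose and FOS fell, within the JUN family JUN rose and JUNB fell, and PHLDA1 rose. These 5 of the 10 genes passed at an adjusted p under 0.05 (edgeR's quasi-likelihood test with Benjamini-Hochberg adjustment over all genes), 3 higher and 2 lower, where 20.6% of all tested genes passed. The libraries of the groups did not overlap for 8 of the 10, but neither did they for 65.0% of all genes. The median log2 fold change of the 10 was -0.14, beside 0.01 over all genes. Gene positions are those of RefSeq on GRCh38.p14, and genes that overlap them were taken from GENCODE 29. In bulk RNA, fewer expressing cells and less RNA per cell cannot be told apart.

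FOS (chr14:75278828-75282230), the founding subunit of the family, had 292 and 263 CPM (counts scaled to library size) in control replicates 1 and 2 and 34.7 and 39.1 CPM in the particulate replicates. Both particulate libraries lay far below both control libraries, a difference of 7.53-fold (log2 fold change -2.91 ± 0.24 SE, adjusted p = 7.20e-05). FOSL1 (chr11:65892049-65900545) went the other way, from 36.8 and 41.1 CPM to 320 and 361 CPM. That was 8.75-fold higher (3.13 ± 0.24, adjusted p = 6.26e-05), the 41st largest log2 fold change of the 15010 genes. FOSL2 (chr2:28392858-28417317) had 230 and 219 CPM in control and 126 and 220 CPM with particulate, so the groups overlapped and the particulate replicates differed by 1.75-fold (-0.38 ± 0.36, adjusted p = 0.507). FOSB (chr19:45467996-45475179), a low-level paralogue of FOS, had 22.4 and 16.4 against 24.2 and 17.5 CPM, and the groups overlapped (0.10 ± 0.27, adjusted p = 0.818). FOSB lies within the ERCC1 gene on the opposite strand, which had 796 to 1598 reads per library against 257 to 459 for FOSB, and although the library kit keeps strand, no source here says whether strand was used in counting, so its reads may not all be its own.

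JUN (chr1:58780791-58784047), the subunit phosphorylated by JNK, had 220 and 167 CPM in control and 418 and 438 CPM with particulate. The groups did not overlap and the level was 2.21-fold higher (1.14 ± 0.23, adjusted p = 0.00800). JUNB (chr19:12791486-12793315), which can oppose JUN in dimers, had 243 and 187 CPM in control against 58.2 and 54.4 CPM, so that both particulate libraries were below both controls. It fell by 1.93 ± 0.17 on the log2 scale (adjusted p = 9.48e-05), or 3.81-fold. JUNB overlaps HOOK2 on the opposite strand, which had 246 to 423 reads per library against 891 to 4536 for JUNB. JUND (chr19:18279694-18281622), the most constitutively expressed JUN protein in textbook accounts, had 227 and 220 CPM in control and 134 and 110 CPM with particulate. Its groups did not overlap, but the difference just missed the threshold (-0.87 ± 0.28, adjusted p = 0.0507).

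The make-up of AP-1 transcripts was different in the 4 libraries with particulate. FOS made up 62.2% and 59.9% of the TPM of the 4 FOS family genes in control and 65.7% to 70.0% with fucoidan, but 5.17% to 5.38% with particulate and 6.04% to 7.01% in the combination. FOSL1 made up 13.2% and 15.8% in control, 7.36% and 8.94% with fucoidan, 80.6% and 83.8% with particulate, and 71.3% and 74.7% in the combination. No library with particulate overlapped one without it in either share. The ratio of FOSL1 to FOS TPM was 0.213 and 0.263 in control, 0.105 and 0.136 with fucoidan, 15.6 in both particulate replicates, and 11.8 and 10.7 in the combination. In the JUN family the ratio of JUN to JUNB was 0.510 and 0.502 in control, 0.313 and 0.323 with fucoidan, 4.03 and 4.52 with particulate, and 5.26 and 2.83 in the combination. These ratios are descriptions without a test, and they concern transcripts, not proteins. The summed TPM of each family shifted less: the FOS family had 489 to 650 TPM in the 4 libraries without particulate and 636 to 995 TPM in the 4 with it, while the JUN family had 949 to 1178 and 768 to 1261 TPM.

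**Figure D2:**
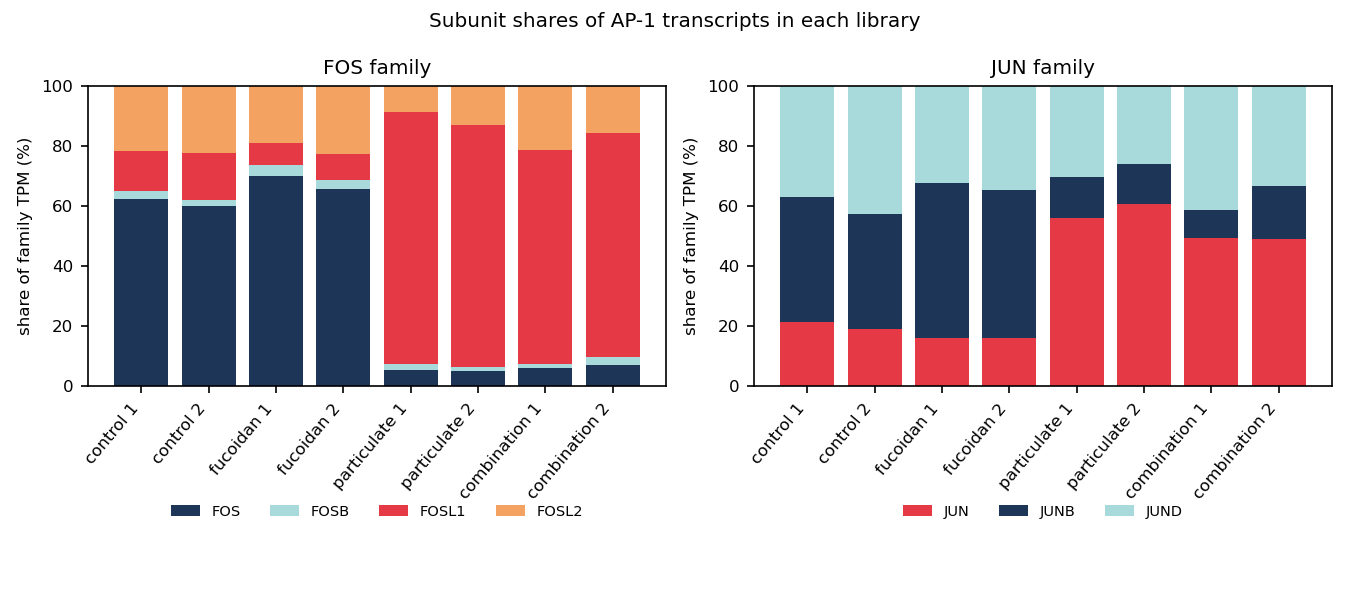
Stacked bars of the share (%) of each family's summed TPM taken by each FOS family gene (left) and each JUN family gene (right) in the 8 libraries. FOS holds 59.9% to 70.0% of its family without particulate and 5.17% to 7.01% with it, and FOSL1 has the larger part in the 4 libraries with particulate.

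PHLDA1 (chr12:76025447-76031776) had 73.5 and 69.8 CPM in control and 372 and 415 CPM with particulate. It rose 5.49-fold, with no overlap (2.46 ± 0.15, adjusted p = 1.92e-05). EGR1 (chr5:138465479-138469303), a zinc finger factor that serum induces, had 448 and 366 CPM in control and 239 and 320 CPM with particulate, and both particulate libraries were below both controls (-0.54 ± 0.20, adjusted p = 0.0895). IER3 (chr6:30743199-30744547) had 437 and 357 CPM in control and 564 and 539 CPM with particulate, again without overlap (0.47 ± 0.18, adjusted p = 0.0982). EGR1 and IER3 thus did not pass, and their 95% intervals ran from -0.99 to -0.09 and from 0.06 to 0.88.

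FOS, FOSL1, JUNB and PHLDA1 passed in each of the 16 alternative fits. JUN passed in 15 of them and not without control replicate 2 (0.96, adjusted p = 0.0935). The count of 5 became 8, with JUND, EGR1 and IER3 added, without either combination replicate, but 32.4% (without replicate 1) and 32.1% (without replicate 2) of all genes passed there, against 20.6%. The cause was not tested. In limma-voom, where a lower quality weight means more spread over all genes, the combination libraries had the lowest weights (0.362 and 0.372, against 0.621 and 0.630 with particulate and 2.00 to 2.20 in control and fucoidan).

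**Figure D3:**
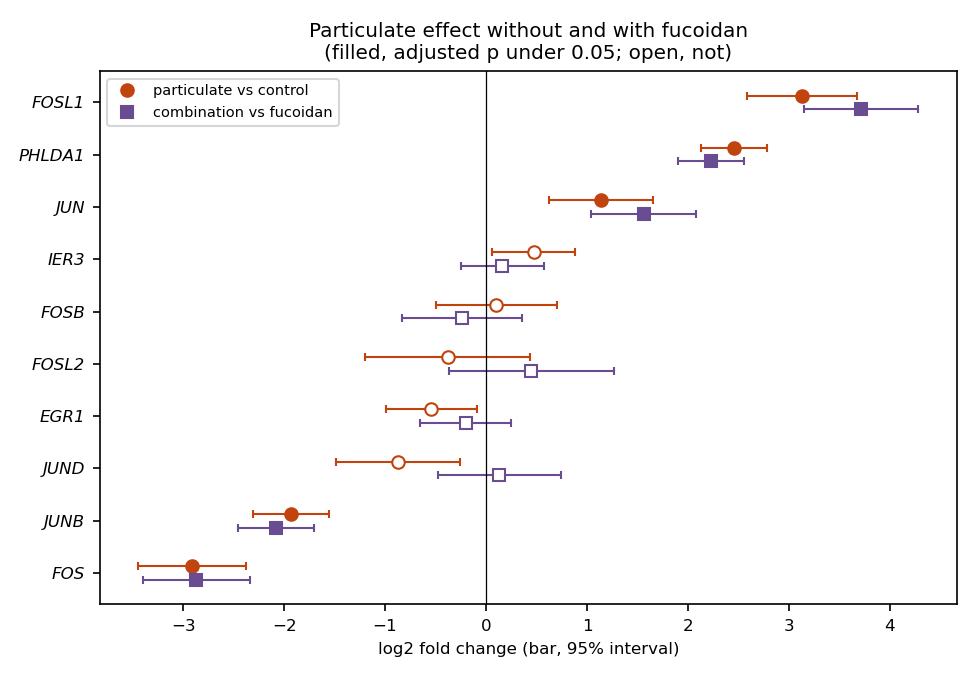
Log2 fold changes of the 10 genes with particulate, without fucoidan (circles, particulate against control) and with it (squares, combination against fucoidan), with bars for 95% intervals. FOSL1, PHLDA1 and JUN lie to the right and JUNB and FOS to the left of 0 in both, with filled symbols for an adjusted p under 0.05.

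Combination against fucoidan gave the effect of the particles on cells that had fucoidan too. It shares no library with particulate against control, so it measured the same exposure in other cultures, with the estimate of spread in common. The same 5 genes passed in the same directions, FOSL1, JUN and PHLDA1 higher and FOS and JUNB lower, where 20.7% of all genes passed. Of the 3089 genes called without fucoidan, 2009 (65.0%) were called in the same direction with it, which was 64.6% of the 3110 called there. FOSL1 had 23.6 and 22.6 CPM with fucoidan and 382 and 225 CPM in the combination (3.72 ± 0.25, adjusted p = 5.82e-05). FOS had 378 and 281 CPM against 54.6 and 35.6 CPM (-2.87 ± 0.24, adjusted p = 0.000142). Neither gene's groups overlapped. JUN had 158 and 156 CPM against 578 and 351 CPM (1.56 ± 0.23, adjusted p = 0.00217), and JUNB had 285 and 271 CPM against 61.8 and 69.8 CPM (-2.08 ± 0.17, adjusted p = 0.000139). PHLDA1 had 57.5 and 55.4 CPM against 278 and 253 CPM (2.23 ± 0.15, adjusted p = 5.45e-05), and JUN, JUNB and PHLDA1 did not overlap between the groups either. The share of all genes without overlap was not counted for this comparison. In particulate against control that share was 65.0%, so a lack of overlap sets no gene apart. All 5 passed in each of the 16 alternative fits, and 7 of the 10 had the same sign in both comparisons, beside 78.9% of all genes. FOSB, FOSL2, JUND, EGR1 and IER3 lay between -0.24 and 0.45 on the log2 scale with overlapping groups. Without combination replicate 2, FOSL2 (0.95, adjusted p = 0.0133) and JUND (0.55, adjusted p = 0.0204) passed too, and 34.3% of all genes did.

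The interaction asked whether the particulate effect differed with and without fucoidan. None of the 10 passed in edgeR's test (0.0% of all genes did). Of the 10, 1 had an unadjusted p under 0.05, as had 668 of all 15010 genes. DESeq2, limma on TPM and limma-voom called none of the 10, while edgeR without the filter on low counts called JUND (adjusted p = 0.0281) and 0.573% of all genes. The 95% interval of the difference was -0.66 to 0.74 for FOS, -0.13 to 1.31 for FOSL1, -0.66 to 0.37 for JUNB, -0.30 to 1.14 for JUN and -0.67 to 0.22 for PHLDA1. The gene with the unadjusted p was JUND (1.01 ± 0.39, adjusted p = 0.897), named after its value was seen. Without combination replicate 2, FOSL1, FOSL2 and JUND passed, and 5.56% of all genes did.

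Combination against control put the joint exposure beside vehicle. Of the 10 genes 6 passed, where 17.0% of all genes did: FOSL1 (2.96 ± 0.24), JUN (1.26 ± 0.23), PHLDA1 (1.89 ± 0.14) and IER3 (0.71 ± 0.18) were higher and FOS (-2.62 ± 0.23) and JUNB (-1.71 ± 0.17) lower. IER3 had 758 and 541 CPM in the combination, both above the control libraries (adjusted p = 0.0291). Its call was lost without either control library (adjusted p = 0.108 and 0.215), without either fucoidan library (0.0622 and 0.0621), without combination replicate 1 (0.0763) and in the fit of only these groups (0.0928). JUN had an adjusted p of 0.00735, 0.0933 without control replicate 2 and 0.0527 in the fit of only these groups. EGR1 had 462 and 354 CPM, which overlapped control (0.00 ± 0.20, 95% interval -0.45 to 0.46).

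The combination replicates did not match each other for several subunits. FOSL2 had 430 CPM in the first and 178 CPM in the other, and JUND 287 and 141 CPM, both higher in replicate 1, as were FOSL1 (382 and 225 CPM) and JUN (578 and 351 CPM). The ratios between replicates were 2.41 for FOSL2, 2.03 for JUND, 1.70 for FOSL1 and 1.65 for JUN. FOS (1.53), IER3 (1.40) and EGR1 (1.31) lay between and were higher in replicate 1 too. The smallest were 1.13 for JUNB, 1.10 for PHLDA1 and 1.03 for FOSB. PHLDA1 and FOSB were higher in replicate 1, but JUNB was higher in replicate 2 (61.8 and 69.8 CPM). A list of 15 hypoxia and glycolysis genes, chosen with the replicate difference known, was higher in replicate 1. Its summed level in combination replicates 1 and 2 was 18942 and 4566 CPM, with all 15 genes higher in replicate 1. In the particulate replicates it was 6139 and 9416 CPM, with 14 of the 15 higher in replicate 2, where FOSL2 was higher too and JUND was not. Its range in control and fucoidan was 8798 to 10266 CPM. Without combination replicate 1 the difference of FOSL2 from control was -0.33 in place of 0.44 and that of JUND -0.65 (adjusted p = 0.0220) in place of -0.06. Without combination replicate 2 these were 0.94 (adjusted p = 0.0146) and 0.36. No direction can therefore be given for FOSL2 or JUND in the combination against control. The same holds against fucoidan, where the differences without combination replicate 1 were -0.32 and -0.46 in place of 0.45 and 0.13. The part of the hypoxia genes in these values was not tested.

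**Figure D4:**
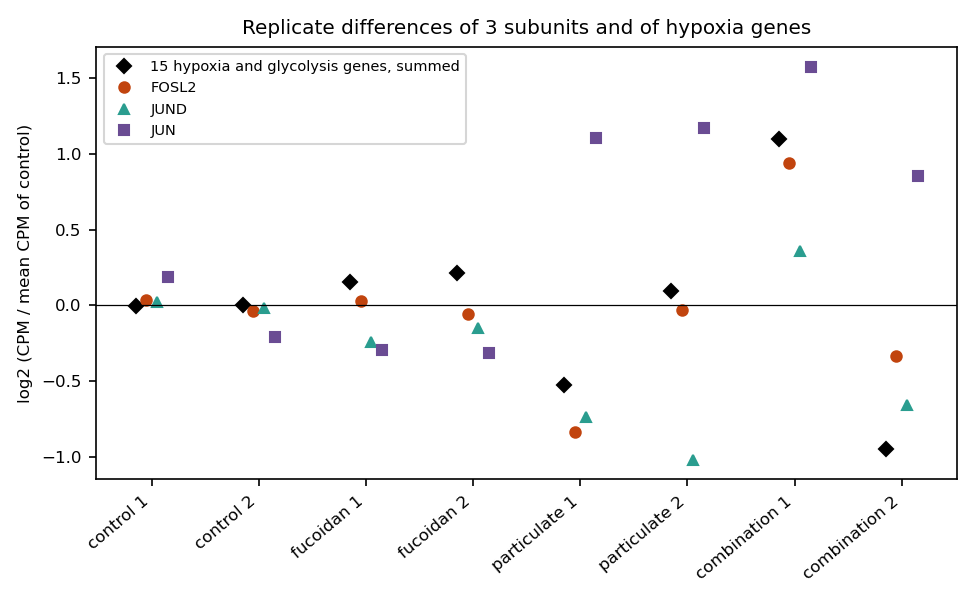
Log2 ratio of CPM to the mean of the control replicates for FOSL2 (circles), JUND (triangles), JUN (squares) and the summed 15 hypoxia and glycolysis genes (diamonds) in the 8 libraries. Combination replicate 1 lies above replicate 2 for all 4, and JUN stays above control in all 4 libraries with particulate.

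Fucoidan against control asked what the polysaccharide did alone. No gene of the 15010 passed in edgeR's test (0.0%), and so none of the 10, although 4 of the 10 and 662 genes of all had an unadjusted p under 0.05. DESeq2 called 23 genes and limma-voom with quality weights 313, with 0 and 2 of the 10 among them. The libraries did not overlap for 6 of the 10, 2 higher and 4 lower, beside 48.0% of all genes. FOSL1 had 36.8 and 41.1 CPM in control and 23.6 and 22.6 CPM with fucoidan, both lower (-0.75 ± 0.23, adjusted p = 0.877). PHLDA1 was at 73.5 and 69.8 against 57.5 and 55.4 CPM, both lower too (-0.34 ± 0.14, adjusted p = 0.999). IER3 had 437 and 357 against 585 and 576 CPM, both higher (0.55 ± 0.18, adjusted p = 0.978), and JUNB had 243 and 187 against 285 and 271 CPM, again both higher (0.37 ± 0.16, adjusted p = 0.999). JUN and JUND also lay apart, at -0.30 ± 0.23 and -0.19 ± 0.27, and FOS, FOSB, FOSL2 and EGR1 overlapped. In a fit of only the 4 control and fucoidan libraries, which had the highest quality weights, 849 of 14389 genes (5.90%) and 5 of the 10 passed. These were FOSL1 (-0.75, adjusted p = 3.19e-05) and PHLDA1 (-0.33, adjusted p = 0.0439) lower, and IER3 (0.56, adjusted p = 0.000654), JUNB (0.38, adjusted p = 0.0252) and FOSB (0.57, adjusted p = 0.0202) higher. The replicates of FOSB overlap between the groups, at 35.8 and 21.7 CPM with fucoidan against 22.4 and 16.4 CPM.

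Combination against particulate asked what fucoidan did in cells exposed to the particles. No gene of the 10 passed in edgeR's test, where 0.0866% of all genes did. Of the 10, 3 had an unadjusted p under 0.05, as had 2599 of all 15010 genes. DESeq2, limma on TPM and limma-voom called none of the 10. Without the filter on low counts edgeR called 4, FOSL2 (adjusted p = 0.000701), JUND (0.00100), EGR1 (0.0458) and PHLDA1 (0.0412), and 4.40% of all genes. The libraries did not overlap for 4 of the 10, beside 41.3% of all genes. PHLDA1 had 372 and 415 CPM with particulate and 278 and 253 CPM in the combination, both lower (-0.57 ± 0.14, 95% interval -0.88 to -0.26, adjusted p = 0.193). Its libraries were lower with fucoidan, without overlap, both in the presence and in the absence of particulate, as were those of 8.65% of all genes, and those of JUNB were higher in both, as for 7.84% of all genes. EGR1 (0.54 ± 0.20), JUND (0.81 ± 0.27) and JUNB (0.22 ± 0.16) did not overlap either and were higher in the combination. FOSL1 (-0.17 ± 0.22, 95% interval -0.67 to 0.33) and FOS (0.29 ± 0.22, -0.21 to 0.79) overlapped, and their levels in the combination stayed on the particulate side of every library without particles. Both comparisons on fucoidan share no library, and 7 of the 10 had the same sign in them, as did 63.5% of all genes. Without combination replicate 2, FOSL2 (1.31), JUND (1.23), EGR1 (0.72) and PHLDA1 (-0.51, adjusted p = 0.0380) passed, and so did 20.9% of all genes. Without replicate 1 none did.

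**Figure D5:**
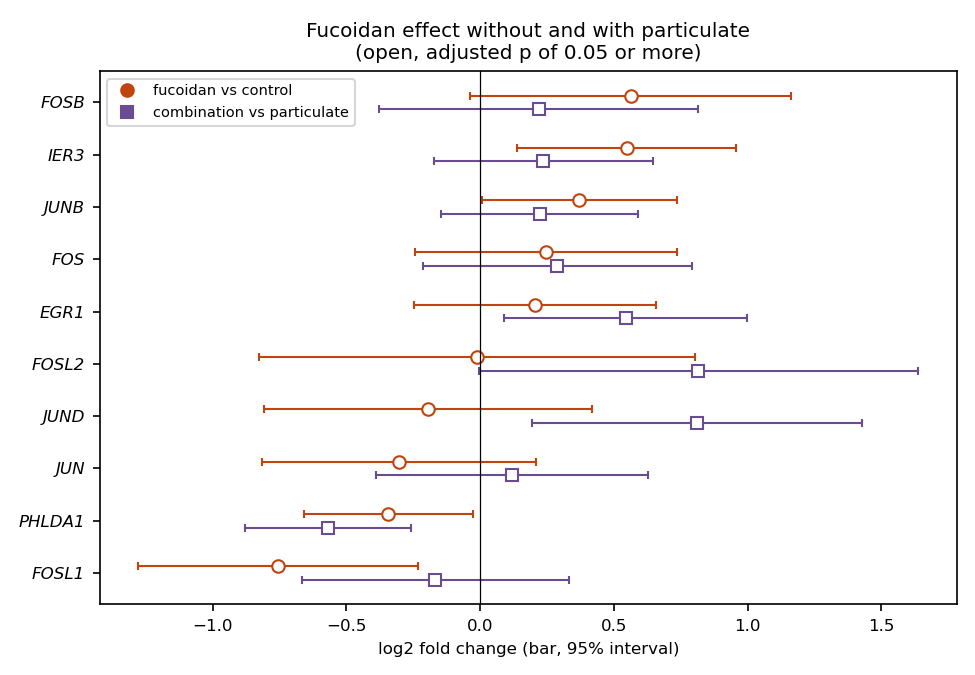
Log2 fold changes of the 10 genes with fucoidan, without particulate (circles) and with it (squares), with bars for 95% intervals. All symbols are open because none passed at an adjusted p under 0.05, and PHLDA1 is the gene whose intervals both lie below 0.

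Other genes around AP-1 were counted from lists of textbook members. Of 40 genes with known AP-1 sites 35 were tested, and with particulate 18 rose and 3 fell, or 60% beside 20.6% of all genes. The median change of the list was 1.20 on the log2 scale beside 0.01 over all genes. CSF2, a cytokine for myeloid cells, rose by 4.61 ± 0.29 (adjusted p = 2.40e-05) and HMGA2, a chromatin architectural protein, by 3.33 ± 0.26 (adjusted p = 6.61e-05). The level of CSF2 was very low in control, at 0.496 and 0.447 CPM, against 12.1 and 11.3 CPM with particulate. NQO1, a quinone reductase, rose by 2.67 ± 0.18, and TGM1, the transglutaminase of cornified epithelium, fell by 4.84 ± 0.27. The list shares HMOX1, NQO1 and SQSTM1 with the targets of NRF2, so its count is not specific to AP-1. With fucoidan present 17 rose and 5 fell, or 62.9% beside 20.7% of all genes. Fucoidan itself gave 0 calls in the list in edgeR's test, alone or on top of particulate. Over all genes the shares called there were 0.0% and 0.0866%.

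The other immediate early genes (37 of 40 tested) gave 8 that rose with particulate and 7 that fell (median 0.26). That was 40.5% of those tested, beside 20.6% of all genes. DUSP6, a phosphatase of ERK, rose by 2.16 ± 0.20 (adjusted p = 0.000142), while BTG2, an antiproliferative factor, fell by 2.12 ± 0.17 (adjusted p = 7.25e-05), as did GADD45B, a stress sensor (-1.56 ± 0.15, adjusted p = 0.000166), and PLK2, a polo-like kinase (-3.31 ± 0.40, adjusted p = 0.000592). The list thus split in both directions in particulate against control, as the 10 genes did. It leaned upward in combination against fucoidan, with 15 higher and 5 lower (median 0.52), or 54.1% beside 20.7% of all genes. Among other leucine zipper genes that can pair with AP-1 proteins or share their motifs, 23 of 25 were tested. Of these 4 rose and 3 fell, or 30.4% beside 20.6% of all genes (median -0.02). MAFG, a small MAF protein, rose by 1.01 ± 0.15 and BATF3, a partner of JUN, by 1.72 ± 0.34. MAF fell by 2.37 ± 0.32 and BACH2, a repressor, by 1.47 ± 0.29. This list had 8 higher and 1 lower in combination against fucoidan, or 39.1% beside 20.7% of all genes. MAFG (1.56) and BATF3 (1.96) passed there, while MAF (-0.60, adjusted p = 0.168) and BACH2 (0.03, adjusted p = 0.939) did not. The kinases and factors of the signal chain to AP-1 had 2 higher and 2 lower of 33 tested, or 12.1% beside 20.6% of all genes, and in combination against fucoidan 5 higher and 3 lower, or 24.2% beside 20.7%. MAP2K3, a kinase of p38, rose by 1.18 ± 0.20 and ELK3, an ETS partner of serum response factor, by 0.82 ± 0.19. SRF, the serum response factor itself, fell by 0.64 ± 0.15 (adjusted p = 0.0148), and MAP3K1 by 1.00 ± 0.29 (adjusted p = 0.0400). These 4 changes are from particulate against control. MAP2K3 (1.54) and ELK3 (0.90) passed in combination against fucoidan too. SRF (-0.34, adjusted p = 0.125) and MAP3K1 (-0.35, adjusted p = 0.405) did not. Of 19 tested genes for the decay of AP-1 messages and proteins 1 passed, or 5.26% beside 20.6% of all genes. It was ZFP36L2, which binds AU-rich messages (-0.87 ± 0.17).

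The genes whose pattern over the 8 libraries was most like that of each of 6 members were sought among 10919 others with a mean of at least 5 CPM. Likeness was the root mean square difference of centred log2 CPM. PDGFRB, a platelet-derived growth factor receptor, was nearest to FOS at 0.20, where FOS itself varied about its mean by 1.47. PDGFRB had 216 to 289 CPM in the 4 libraries without particulate and 22.9 to 47.0 CPM in the 4 with it, and NPR3 and IGFBP5 followed at 0.26 and 0.27. CXCL3, a chemokine, was nearest to FOSL1 at 0.27, then GPAT3 (0.30) and SCG5 (0.38), where FOSL1 varied by 1.73. CLMP, an adhesion molecule (0.14), TNFRSF11A (0.16) and ODC1, which makes polyamines (0.18), were nearest to PHLDA1. SLC6A6, the taurine transporter (0.11), PRRG4 (0.11) and C3orf52 (0.14) were nearest to JUN, and PHLDA1 and JUN varied by 1.20 and 0.71. EGR1, which varied by 0.33, had PRKAB2 (0.08) and CA5B (0.08) as its nearest genes, and IER3, which varied by 0.30, had CACHD1 (0.11), ZNF558 (0.12) and CLU (0.12).

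The label of the cells was checked against marker genes. All 11 genes that pigment epithelium keeps in culture, such as KRT8, KRT18 and OTX2, had a mean of at least 1 CPM. Their summed level was 14619 to 15302 CPM without particulate and 9918 to 12257 CPM with it. VIM alone had 5575 to 7919 CPM over the libraries, while LRAT had 0.855 to 7.72 CPM and SERPINF1 0.613 to 2.81 CPM. Of 10 genes of the differentiated pigment epithelium 3 reached that level, and RPE65, the retinoid isomerase, had 2 reads over all libraries. The summed markers of photoreceptors, glia, endothelium and leukocytes were at 0 to 0.425 CPM in every library. Of the 3 fibroblast markers LUM and DCN had 1 and 3 reads over all libraries, and PDGFRB was the gene most like FOS. Neuron markers summed to 1.72 to 3.60 CPM. The part of these levels in the results was not tested.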

How the data were processed

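The authors deposited raw, whole read counts for each gene and library. HISAT2 2.1.0, featureCounts and Subread 2.0.1 were among the tools named with the build GRCh38, per the submitters' processing notes. TPM were used as the authors deposited them, for levels between genes and in an alternative fit. Libraries were stranded per the labels' protocols; whether counting used strand is not stated there. Genes were kept by edgeR's filterByExpr (15010 of 60623), scaled by TMM and fitted with 1 mean per group over 8 libraries (edgeR 4.0.16, glmQLFit and glmQLFTest, R 4.3.3). P-values were adjusted by Benjamini-Hochberg over all genes in each of 6 comparisons, with 0.05 as the threshold. The SE is the log2 fold change over the square root of F, and 95% intervals use it. CPM are counts scaled to TMM library sizes. With 2 replicates a group, precision rests on the shared spread. The code was tested on simulated data. The 10 genes, the lists and the tests were chosen with earlier results of these data known, so they are not independent of them.

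All 10 genes are named. From the other lists up to 4 genes with the smallest adjusted p in particulate against control, and up to 2 in each fucoidan comparison, were named at a mean of at least 1 CPM, plus the 3 genes most like each of 6 members (1 of them is not reported here). Alternatives were RLE scaling, no filter, DESeq2 1.42.0, limma 3.58.1 on log2 TPM (pseudocounts 0.5 and 0.1), limma-voom with quality weights, a fit of only the groups compared, a replicate block, and leaving out each library.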

Additional observations from a re-analysis of the deposited data

How the results depend on the processing

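For the 10 genes in 6 comparisons, 869 of 950 fold changes under the alternatives kept their direction and their side of the threshold, 43 passed only there, 9 no longer passed and 29 changed sign, all of genes that had not passed. The number of genes passing in particulate against control was 8 in place of 5 without the filter (14.1% of all genes passed). It was 8 too in the fit of only the groups compared (29.1%) and with limma-voom weights (26.8%). With DESeq2 (19.1%) and with limma on TPM (16.4% and 16.3%) it was 6. There JUND was added, at an adjusted p of 0.00988 in DESeq2 and 0.0311 and 0.0317 in limma. In fucoidan against control it was 1 without the filter (0.268% of all genes), 5 in the fit of only the groups compared (5.90%) and 2 with limma-voom weights (2.09%), in place of 0. In combination against particulate it was 4 without the filter (4.40% of all genes), in place of 0. In the interaction it was 1 without the filter (0.573%), in place of 0.

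Sign changes were these. With TPM, FOSL2 in fucoidan against control was 0.035 and 0.036 (pseudocounts 0.5 and 0.1). EGR1 in combination against control was -9.1e-05 with RLE, -0.0042 with limma-voom weights and -9.7e-05 with DESeq2. With 1 library left out, EGR1 there ran from -0.20 to 0.18, FOSL2 from -0.33 to 0.94 and JUND from -0.65 to 0.36. In particulate against control FOSB ran from -0.11 to 0.35 and FOSL2 from -0.83 to 0.0075, and in fucoidan against control FOSL2 from -0.055 to 0.035. In combination against particulate FOS ran from -0.050 to 0.56, FOSL1 from -0.60 to 0.16, JUN from -0.28 to 0.43 and IER3 from -0.025 to 0.45. In combination against fucoidan FOSB ran from -0.56 to 0.16, FOSL2 from -0.32 to 0.95, JUND from -0.46 to 0.55 and IER3 from -0.098 to 0.38. In the interaction FOS ran from -0.30 to 0.31, FOSB from -0.67 to 0.055 and JUNB from -0.35 to 0.022. Over all genes the calls were 3089 in particulate against control (906 to 5003 with 1 library left out), 3110 in combination against fucoidan (743 to 5339; 1511 in the fit of only these groups) and 2556 in combination against control (407 to 5137; 1026). In fucoidan against control they were 0 (0 to 38; 849, with 73 without the filter, 313 with limma-voom weights and 23 with DESeq2). In combination against particulate they were 13 (0 to 3257; 0, with 1197 without the filter, 310 with DESeq2, 3 with the block, 4 with limma-voom weights and 5 and 6 with TPM), and in the interaction 0 (0 to 865, with 156 without the filter and 17 with DESeq2). The cause was not tested.

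With the replicate number as a block, 6 genes passed in particulate against control (JUND added, adjusted p = 0.0489; 16.9% of all genes), 5 in combination against fucoidan (17.0%) and 6 in combination against control (12.5%). The numbers are not shown to pair the samples: replicate differences correlated between groups at -0.25 to 0.0754 over genes. The fit of only the groups compared was not run for the interaction, which needs all 4. With 2 replicates a group, which small differences passed depended on the fit.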
